A study of Saccharomyces cerevisiae with 12 samples.

Results

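The mitochondrial di- and tricarboxylate carriers of the yeast Saccharomyces cerevisiae were followed over 4 growth-limiting carbon sources. The group was chosen by gene name and held 6 members, SFC1 (also called ACR1, locus YJR095W), DIC1 (YLR348C), ODC1 (YPL134C), ODC2 (YOR222W), OAC1 (YKL120W) and CTP1 (YBR291C). These are 6 of the 5656 genes that had a probe set of their own on the array, and each was read by 1 probe set.

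RNA was measured on 12 Affymetrix Yeast Genome S98 arrays, 1 array for each steady-state chemostat culture. All cultures held the wild-type laboratory strain CEN.PK113-7D, a haploid of mating type a, grown aerobically at 30 °C, pH 5 and a dilution rate of 0.1 per hour. In a chemostat at steady state the dilution rate sets the growth rate, so growth rate was the same in all groups and the limiting nutrient differed. The limiting carbon source was ethanol, acetate, maltose or glucose, with 3 arrays each. Ethanol and acetate enter metabolism as units of 2 carbons and are called the C2 compounds here, while maltose and glucose are the sugars.

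These carriers sit in the inner mitochondrial membrane and exchange organic acids between the cytosol and the matrix. Sfc1 takes up succinate made by the glyoxylate cycle and releases fumarate for gluconeogenesis, and yeast without it grows poorly on ethanol and acetate. Dic1 exchanges malate or succinate for phosphate, and Ctp1 carries citrate. Odc1 and Odc2 are related carriers of 2-oxoglutarate and 2-oxoadipate, which serve glutamate and lysine synthesis, and Oac1 carries oxaloacetate, sulfate and isopropylmalate, the last an intermediate of leucine synthesis. On glucose or maltose the cytosol makes its C4 acids from pyruvate, whereas on ethanol or acetate it makes them through the glyoxylate cycle.

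The labels were checked against marker genes. MAL11, a maltose transporter gene, had signals of 2583 to 4455 on the maltose arrays and at most 572 on any other array. PCK1, the gene of the gluconeogenic enzyme phosphoenolpyruvate carboxykinase, had 2870 to 4017 on the C2 arrays and at most 225 on the sugar arrays. The summed signal of the 6 mating type a genes was 2905 to 6150 on each array, against 39.3 to 282 for the 3 genes of the other mating type. The 282 was on glucose array 1, and the other arrays had at most 91.5. The a genes were uneven: MFA1 and MFA2 had at least 1010 and 926, STE2 and STE6 at most 147 and 113. These sums come from different probe sets, so they are a rough check. Some arrays stood apart from the rest. The ratio of 3′ to 5′ signal of actin, a sign of RNA or cDNA completeness, was 9.27 to 13.98 on arrays 2 and 3 of ethanol and of acetate and at most 3.31 on the other 8 arrays. For a further control, YER148W, it was 7.33 to 10.05 on the former and at most 5.88 on the latter. The 3′ to 5′ covariate used below was the mean log2 ratio of both controls. Maltose array 2 had a median signal of 22.8, against 41.7 to 48.4 on the other arrays. The 3 glucose arrays were submitted earlier, with protocol text of their own, so the age of the records and glucose cannot be told apart.

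SFC1 and ODC1 rose and DIC1 fell in the cultures on ethanol and acetate relative to those on maltose and glucose. ODC2, OAC1 and CTP1 did not pass the test. Values are linear signals as deposited, and a change is a log2 difference of group means from limma, fitted to all 7176 probe sets that passed the filter on dim signals. All 6 members passed that filter. A call means a Benjamini-Hochberg adjusted p under 0.05. Over all probe sets tested, 11.4% were called higher and 5.69% lower on the C2 compounds. Among the members 2 were called higher and 1 lower.

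**Figure D1:**
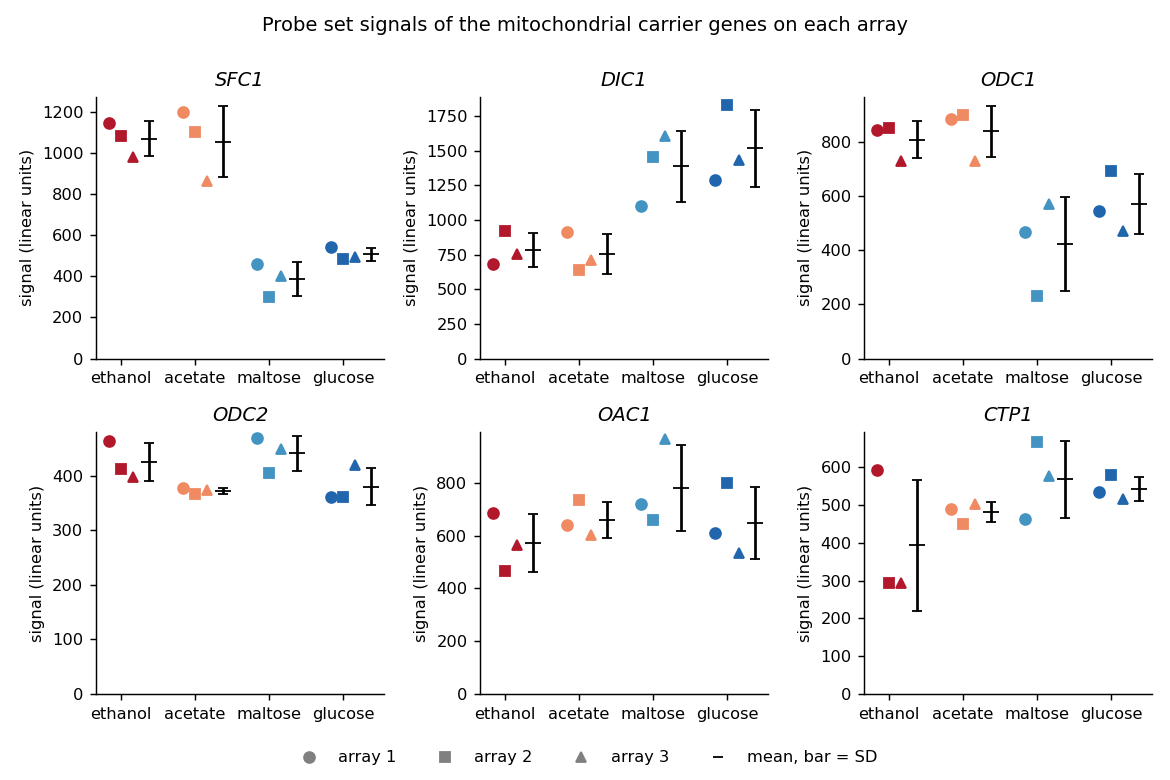
Signals (linear units, vertical axes from 0) of the 6 carrier genes on each array by carbon source, with circles, squares and triangles for arrays 1, 2 and 3 and black bars for the mean and SD (n = 3). SFC1 and ODC1 lay higher and DIC1 lower on all 6 C2 arrays than on all 6 sugar arrays, whereas the other 3 genes overlapped.

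SFC1 encodes the succinate-fumarate carrier. Its signal was 1148, 1084 and 981 on the ethanol arrays and 1201, 1103 and 866 on the acetate arrays. It was 461, 299 and 404 on the maltose arrays and 541, 484 and 496 on the glucose arrays. All 6 C2 arrays lay above all 6 sugar arrays, with a gap between 866 on the lowest C2 array and 541 on the highest sugar array. The mean was 1064 ± 121 (SD, n = 6) on the C2 compounds and 447 ± 85.7 (SD, n = 6) on the sugars. This is a log2 change of 1.27 ± 0.14 (SE; 95% interval 0.98 to 1.55), or 2.41-fold, with a limma adjusted p of 1.20e-05. By size it ranked 205 among the 7176 probe sets.

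SFC1 was called in each of the 4 single comparisons of a C2 compound with a sugar. Against glucose the log2 change was 1.08 in ethanol and 1.05 in acetate (limma adjusted p 0.0052 and 0.00414). Against maltose it was 1.49 in ethanol and 1.46 in acetate (limma adjusted p 0.000179 and 0.000182). These comparisons share arrays, so they are not independent of each other. Taking all tested probe sets together, the changes against maltose centred on medians of 0.21 in ethanol and 0.23 in acetate. Against glucose those medians were 0.01 and 0.03. This general shift was not taken out of the SFC1 changes, so the larger values against maltose include it. The background share of called probe sets was 2.55% for ethanol with glucose, 5.5% for acetate with glucose, 6.19% for ethanol with maltose and 11.2% for acetate with maltose. All 4 calls held when any 1 array was left out. With array 1 alone for each C2 compound the pair changes against glucose were 1.18 in ethanol and 1.25 in acetate, and neither was called (adjusted p 0.247 and 0.155). With array 2 as the lone glucose array, assumed to vary like the other groups, they were 1.14 and 1.11 and again not called (adjusted p 0.113 and 0.0858).

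Within the C2 compounds and within the sugars SFC1 was not called. The ethanol minus acetate change was 0.03 (95% interval −0.38 to 0.43). For maltose minus glucose the change was −0.41, with an interval of −0.81 to −0.0035 and an adjusted p of 0.428. The median over all probe sets was itself −0.20 in that comparison, and 0.209% of probe sets were called there, against 0.0279% for ethanol with acetate. The maltose and glucose count was 15 probe sets, and it became 142 without maltose array 3, 32 without glucose array 2, 8 without maltose array 1 and 9 without glucose array 1. For ethanol with acetate it was 2 probe sets, 4 without acetate array 1 and 1 without acetate array 3. In order, the SFC1 means were 1071 ± 84.3 on ethanol, 1057 ± 172 on acetate, 507 ± 30.2 on glucose and 388 ± 82.1 on maltose (SD, n = 3 each). Of the steps between neighbours in that order, the one between acetate and glucose was called.

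The SFC1 change was 1.42 with arrays 1 alone for the C2 compounds, where the actin ratio was at most 3.31 throughout. Code letter P stood in the descriptions of 9 arrays: all C2 arrays, maltose array 3 and glucose arrays 1 and 3. Maltose arrays 1 and 2 carried M, and glucose array 2 carried V. On the 9 arrays of letter P, with 1 maltose array, the change was 1.21.

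DIC1, which encodes the dicarboxylate-phosphate carrier, ran the other way. Its signal was 682, 919 and 755 on ethanol and 913, 642 and 710.0 on acetate. It was 1102, 1455 and 1604.5 on maltose and 1291, 1831 and 1432 on glucose. Every C2 array lay below every sugar array, with 919 as the highest C2 value and 1102 as the lowest sugar value. The mean was 770.1 ± 119 on the C2 compounds and 1453 ± 251 on the sugars (SD, n = 6 each). DIC1 fell by 0.91 ± 0.15 on the log2 scale (SE; 95% interval −1.22 to −0.60), a signal 1.88-fold lower, with a limma adjusted p of 0.000698.

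All 4 single comparisons of DIC1 passed as well. The log2 change against glucose was −0.95 in ethanol and −1.01 in acetate (limma adjusted p 0.0252 and 0.0104). Against maltose it was −0.81 in ethanol and −0.88 in acetate (limma adjusted p 0.0308 and 0.0154). These single comparisons rest on 3 arrays against 3 and several ended when 1 array was left out. Without ethanol 1, ethanol 3, glucose 2 or glucose 3, the ethanol to glucose change had an adjusted p of 0.0582, 0.0985, 0.0972 or 0.0713. Without ethanol 1, 2 or 3 or maltose 2, that of ethanol to maltose was 0.0799, 0.0518, 0.0969 or 0.0872. Acetate to glucose ended without acetate 2 or 3 (0.0694 and 0.0593), and acetate to maltose without acetate 2, acetate 3 or maltose 2 (0.0888, 0.0748 and 0.0548). The changes kept their direction and lay between −1.15 and −0.70 in these fits. None of the 4 pairs was called with the 3′ to 5′ covariate or with array 1 alone for the C2 compounds, and 2 were called with a floor of 50, without the filter, without the intensity trend, with the code letter as a block and on letter P arrays.

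The comparison of all C2 with all sugar arrays kept its DIC1 call without any 1 array, with changes of −0.99 to −0.84. With array 1 alone for ethanol and acetate the change was −0.86 and was no longer called (adjusted p 0.112), and with the 3′ to 5′ ratio as a covariate it was −0.92 (adjusted p 0.0675). On the 9 arrays of code letter P, with 1 maltose array, it was −0.95. DIC1 was not called between maltose and glucose (−0.13; 95% interval −0.57 to 0.31) or between ethanol and acetate (0.06; interval −0.38 to 0.50).

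ODC1 encodes one of the pair of 2-oxodicarboxylate carriers. Its signal was 841, 849.6 and 727 on ethanol and 884, 898 and 729 on acetate. It was 465, 230.0 and 571 on maltose and 545, 691 and 471 on glucose. The groups did not overlap, but only narrowly: the lowest C2 array had 727 and the highest sugar array 691. The mean was 821 ± 75.2 on the C2 compounds and 496 ± 154 on the sugars (SD, n = 6 each). The log2 change was 0.80 ± 0.19 (SE; 95% interval 0.40 to 1.20), 1.74-fold, with a limma adjusted p of 0.00963.

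ODC1 passed in the single comparisons with maltose and not in those with glucose. Ethanol minus maltose was 1.03 and acetate minus maltose 1.08 (limma adjusted p 0.0326 and 0.0187), while ethanol minus glucose was 0.52 (95% interval −0.05 to 1.08; adjusted p 0.360) and acetate minus glucose 0.57 (adjusted p 0.235). That difference between the sugars was not itself called, since maltose minus glucose was −0.51 (95% interval −1.08 to 0.05). The ODC1 changes against maltose also include the general shift of all probe sets. Its medians were 0.21 in ethanol and 0.23 in acetate against maltose, 0.01 and 0.03 against glucose, and −0.20 for maltose minus glucose. Maltose array 2, whose median was low, held the lowest ODC1 signal. Without it, the changes against maltose were 0.64 in ethanol and 0.69 in acetate, and neither was called (adjusted p 0.093 and 0.0581). The ethanol to maltose call also ended without ethanol 1, 2 or 3 (adjusted p 0.0654, 0.108 and 0.0711), and acetate to maltose without acetate 2 (0.0801). Among code letter P arrays, which hold 1 maltose array, the changes against maltose were 0.49 and 0.55, and acetate minus glucose was 0.72. Which ODC1 pairs passed also depended on the processing. With array weights the changes against glucose were 0.63 in ethanol and 0.71 in acetate, both called (limma adjusted p 0.0195 and 0.00168). With a floor of 50 neither change against maltose was called (limma adjusted p 0.110 and 0.0765), nor without the filter (0.112 and 0.0755).

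The comparison of all C2 with all sugar arrays stayed called for ODC1 without any 1 array, with changes of 0.60 to 0.93. It was 0.61 on the 9 arrays of code letter P. With the letter as a block it was again 0.61 and was not called (limma adjusted p 0.0883). These values are equal by construction. Letters M and V mark sugar arrays only, and the block takes those arrays out of the group means. The call also ended with array 1 alone for each C2 compound (0.87, adjusted p 0.290), with the 3′ to 5′ ratio as a covariate (1.10, adjusted p 0.0734) and without glucose arrays 1 and 3 (0.65, adjusted p 0.114).

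ODC2, the other 2-oxodicarboxylate carrier gene, stayed flat. Its signal was 464, 412.5 and 398 on ethanol, 378, 366 and 373 on acetate, 469.5, 406 and 449 on maltose and 361, 360.2 and 419.7 on glucose. The highest of the 12 arrays was 1.30-fold the lowest, and the C2 and sugar arrays overlapped. Its log2 change was −0.04 ± 0.11 (SE; 95% interval −0.28 to 0.20; adjusted p 0.842), and this small value changed sign under quantile normalization (0.01). Its interval does not reach the 0.80 measured for ODC1.

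Oac1 carries oxaloacetate and isopropylmalate. OAC1 had signals of 685, 465 and 565 on ethanol and 641, 734 and 601 on acetate. It had 718.5, 660.5 and 967.5 on maltose and 610.5, 798 and 533 on glucose. The groups overlapped throughout. The log2 change was −0.20 ± 0.15 (SE; 95% interval −0.52 to 0.11), with an adjusted p of 0.357, and the widest pair was ethanol minus maltose at −0.45.

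CTP1, the citrate carrier gene, had signals of 593, 293 and 293 on ethanol and 490.0, 450.5 and 503 on acetate. On maltose it had 462, 665.5 and 578, and on glucose 534.5, 578 and 517. Ethanol arrays 2 and 3 were the lowest of the 12, while ethanol array 1 lay above 10 of the other 11. The C2 and sugar arrays overlapped. The log2 change was −0.39 ± 0.17 (SE; 95% interval −0.75 to −0.03), which did not pass over all probe sets (limma adjusted p 0.130). This value depended on which ethanol arrays entered. Without ethanol array 1 it was −0.56 and was called (adjusted p 0.00993). With array 1 alone for ethanol and for acetate it was −0.03. With the 3′ to 5′ ratio as a covariate it was −0.04 (adjusted p 0.943). The 2 low ethanol arrays are the ethanol arrays with a high ratio. Acetate arrays 2 and 3 also had a high ratio, with CTP1 signals of 450.5 and 503 against 490.0 on acetate array 1. What sets the ethanol arrays apart was not tested.

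None of the 18 pairwise comparisons of ODC2, OAC1 and CTP1 between sources was called by limma, and 3 had an unadjusted p under 0.05. Their changes ran between −0.60 and 0.27. Under the alternatives, array weights gave ODC2 and CTP1 1 called pair each, and leaving out ethanol array 1 gave CTP1 2. A moderated F test over the 4 sources called 8.19% of all probe sets and 3 of the 6 members. Its adjusted p was 0.000122 for SFC1, 0.00642 for DIC1 and 0.0396 for ODC1, against 0.571 for ODC2, 0.442 for OAC1 and 0.269 for CTP1. The ODC1 value is near the threshold and crossed it, up to 0.100, when any of 10 of the 12 arrays was left out. By non-overlap of the 6 C2 and 6 sugar arrays, which 7.34% of all probe sets showed, 3 of the 6 members separated.

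**Figure D2:**
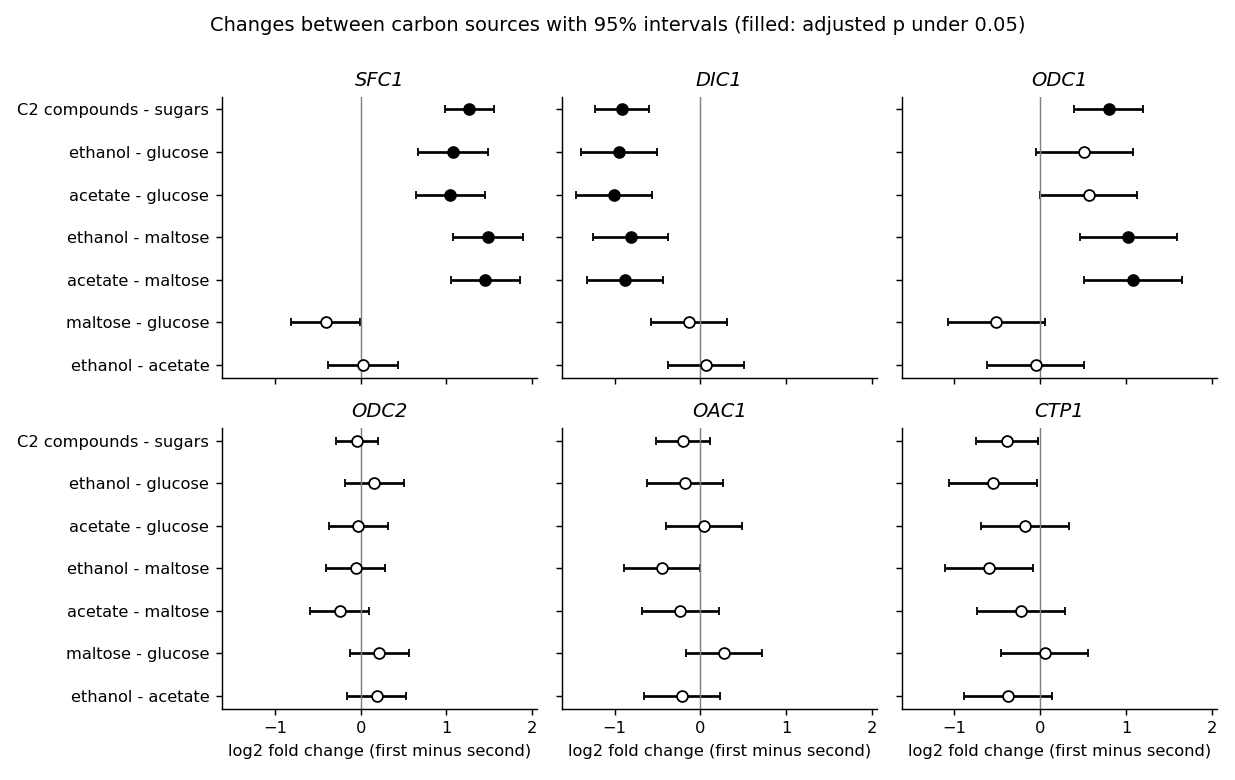
Log2 fold change of each carrier gene (horizontal axis) for the C2 compounds minus the sugars and for the 6 pairs of sources, with 95% intervals and filled points for an adjusted p under 0.05. SFC1 and DIC1 passed in all 4 comparisons of a C2 compound with a sugar, ODC1 passed in those with maltose, and ODC2, OAC1 and CTP1 had no filled point.

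Whether the members differed from each other was tested directly. For each pair the log2 signals were subtracted on every array, and the 6 C2 arrays were compared with the 6 sugar arrays in an exact two-sided permutation test. Of 15 pairs 11 differed after Benjamini-Hochberg adjustment over the 15. The smallest p that 6 against 6 arrays allow is 0.00216, and 7 pairs reached it.

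SFC1 and DIC1 moved apart the most. The difference of their log2 changes was 2.18 (exact permutation p 0.00216, adjusted 0.00464). SFC1 minus DIC1 was 0.24 to 0.78 on the C2 arrays and −2.28 to −1.25 on the sugar arrays, with no overlap. DIC1 and ODC1 differed by −1.71 in the same way (adjusted p 0.00464 by the exact permutation test). In both pairs each gene alone had already separated the C2 from the sugar arrays, in opposite directions. The smallest p was thus fixed in advance and adds nothing to the results of the single genes. SFC1 and ODC1, which rose together, still differed in size by 0.47 (exact permutation p 0.00866, adjusted 0.013), with overlapping arrays.

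The pair of 2-oxodicarboxylate carriers did not respond alike in this test. ODC1 minus ODC2 was 0.86, 1.04 and 0.87 on the ethanol arrays and 1.23, 1.29 and 0.97 on the acetate arrays. It was −0.01, −0.82 and 0.35 on maltose and 0.59, 0.94 and 0.17 on glucose. The C2 arrays were higher on the whole, while glucose array 2 lay within their range. The difference of the log2 changes was 0.84 (exact permutation p 0.00649, adjusted 0.0108), and it was 0.64 to 0.99 when 1 array at a time was left out, called each time. The pair tests were not run with the 3′ to 5′ covariate, array 1 alone for the C2 compounds or the code letter as a block. Nor were they run without glucose arrays 1 and 3. The call of ODC1 itself ended under each of these settings. Levels of the 2 probe sets themselves cannot be set against each other, because each probe set has its own response to RNA.

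DIC1 also differed from OAC1 and from ODC2 (−0.71 and −0.87, adjusted p 0.0148 and 0.00812 by the exact permutation test). No difference was called between DIC1 and CTP1 (−0.52, adjusted p 0.0812 by the same permutation test), and without ethanol array 2 or 3 that pair was called (0.0189 and 0.0433). The 3 pairs among ODC2, OAC1 and CTP1 had differences of 0.16 to 0.35 and were not called.

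**Figure D3:**
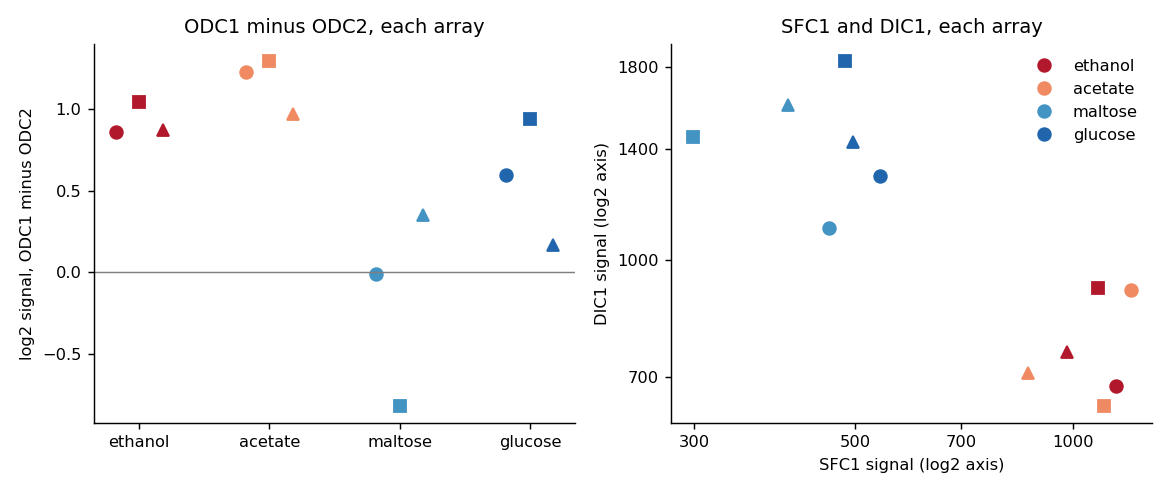
Left, the log2 signal of ODC1 minus that of ODC2 on each array by source. Right, the signals of SFC1 (horizontal, log2 axis) and DIC1 (vertical, log2 axis) on each array, with colours for the sources and marker shapes for arrays 1, 2 and 3 as in the plot of signals by source. All 6 C2 arrays sit at high SFC1 and low DIC1 and all 6 sugar arrays at low SFC1 and high DIC1.

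Across the 12 arrays the log2 signals of SFC1 and ODC1 had a Pearson correlation of 0.875, and those of SFC1 and DIC1 of −0.851. The arrays fall into C2 and sugar clusters, so these values are a description of that split. The probe sets most like each member over the 12 arrays were found among 2670 bright single-gene probe sets. For SFC1 they were CRC1, FBP1 and CIT2 (r = 0.970, 0.970 and 0.965). CRC1 encodes the mitochondrial carnitine carrier, FBP1 fructose-1,6-bisphosphatase of gluconeogenesis and CIT2 the peroxisomal citrate synthase. For DIC1 they were COQ5, PDR12 and GND2 (0.947, 0.934 and 0.928), a coenzyme Q synthesis gene, a weak-acid exporter gene and a phosphogluconate dehydrogenase gene. PDR12 had a far larger fall than DIC1, −3.72 against −0.91 on the log2 scale.

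For ODC1 the most alike were SEY1, CUP9 and TIM8 (r = 0.960, 0.950 and 0.948), and only CUP9, a transcription repressor gene, was called between C2 compounds and sugars. TIM8 encodes a chaperone of mitochondrial protein import. For CTP1 they were NSR1, HXT6 and LYS12 (0.912, 0.892 and 0.876), a nucleolar protein gene, a hexose transporter gene nearly identical to HXT7 and a lysine synthesis gene. The closest were for OAC1 MNC1, RPS22B and NCA3 (0.842, 0.812 and 0.805) and for ODC2 HEF3, HOM2 and YNCK0005C (0.745, 0.712 and 0.706). The likeness was lowest for ODC2, the member with the narrowest range.

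The pathways these carriers serve were read from gene lists, each counted in the same fit. Of 10 genes of the glyoxylate cycle and gluconeogenesis, 9 were called higher on the C2 compounds and the median change was 2.30, against 0.12 over all probe sets. PCK1 rose by 4.25, FBP1 by 3.34 and MLS1, malate synthase of the glyoxylate cycle, by 3.18 on the log2 scale. The exception was PYC2, a pyruvate carboxylase gene, at 0.02. The 9 called genes include IDP2 at 0.71, of an NADP isocitrate dehydrogenase, and MAE1 at 1.07, of malic enzyme. These enzymes are not steps of either pathway. ICL1, isocitrate lyase, which makes the succinate that Sfc1 takes up, averaged 4076 ± 932 on ethanol and 3865 ± 448 on acetate, against 887 ± 131 on maltose and 741 ± 46.5 on glucose (SD, n = 3 each). Its log2 change was 2.28. The SFC1 change of 1.27 lay below the median of this list.

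Of 16 TCA cycle genes 12 were called higher, with a median of 0.60. SDH1, the flavoprotein of succinate dehydrogenase, rose by 1.15, CIT3, a mitochondrial citrate synthase, by 1.04 and IDH1, of the NAD isocitrate dehydrogenase, by 1.03. FUM1, fumarase, averaged 2571 ± 155 on ethanol and 2980 ± 136 on acetate, against 1615 ± 86.9 on maltose and 1553 ± 102 on glucose (SD, n = 3 each). KGD2, LSC1, LSC2 and MDH1 were not called, with changes of 0.03, 0.02, 0.10 and −0.10. With the 3′ to 5′ ratio as a covariate 5 TCA cycle genes were called higher. Over all probe sets 81 were called higher with this covariate, against 817 without it. Fewer TCA cycle genes were also called with array 1 alone for the C2 compounds.

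Of 25 other genes of the mitochondrial carrier family, 24 could be tested, 6 were called higher and none lower. The list includes ANT1, a peroxisomal member of the family, which was not called (0.34). In the lower direction 1 had an unadjusted p under 0.05. Their median change was 0.31. CRC1 stood far above the rest at 2.64: its signal averaged 1138 ± 338 on ethanol and 1435 ± 210.2 on acetate, against 169 ± 29.8 on maltose and 246 ± 33.0 on glucose (SD, n = 3 each). The others called were LEU5 at 0.74, a gene needed for coenzyme A in mitochondria, GGC1 at 0.71, the GTP-GDP carrier, MTM1 at 0.60, YHM2 at 0.59, a citrate and oxoglutarate carrier, and AAC1 at 0.48, an ADP-ATP carrier. YHM2 carries substrates in common with CTP1 and with the ODC pair, and it averaged 757 ± 87.1 on ethanol and 705 ± 100.5 on acetate, against 481 ± 93.5 on maltose and 492 ± 55.6 on glucose (SD, n = 3 each). For AAC1 the only pair of sources called was acetate with glucose (0.87), and ethanol minus maltose was 0.09. Over the alternatives tried between 1 and 9 of the carriers on this list were called higher. With the 3′ to 5′ covariate 1 was left, where 81 of all probe sets were called higher. Fewer were also called with array 1 alone for the C2 compounds and without glucose arrays 1 and 3. Calls in the lower direction numbered 3 with array weights, 2 with quantile normalization and 1 without acetate array 1 or maltose array 2.

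The amino acid pathways linked to the ODC and OAC1 carriers were mixed. Of 12 genes of glutamate and lysine synthesis 4 were called higher and 2 lower, with a median of 0.21. GDH3, a glutamate dehydrogenase, rose by 1.84 and LYS5, which activates the lysine enzyme Lys2, by 0.77. LYS9 and LYS4, of the lysine pathway, fell by 0.72 and 0.57 on the log2 scale. LYS4 averaged 233 ± 83.2 on ethanol, 198 ± 27.0 on acetate and 241 ± 41.1 on maltose, against 413 ± 92.9 on glucose (SD, n = 3 each). Its changes against maltose were −0.09 in ethanol and −0.28 in acetate, and neither was called. GLT1, glutamate synthase, was at 0.66 and LYS1 at 0.46. In ethanol GLT1 was called against glucose (1.09) and against maltose (0.84). In acetate it was called against neither (0.48 and 0.22). With the 3′ to 5′ covariate 1 gene of this list was called higher and none lower, where 81 and 66 of all probe sets were. Fewer genes of the list were also called with array 1 alone for the C2 compounds or without glucose arrays 1 and 3. Of 11 genes of leucine, isoleucine and valine synthesis, 2 were called higher (BAT2 at 0.86 and LEU4 at 0.53) and 1 lower (ILV3 at −0.35), with a median of 0.02. LEU2 stands there by its brightest probe set, at 0.22 and not called, while its other 2 probe sets were called lower (−1.27 and −0.60, limma adjusted p 0.0299 and 0.0427). The count in the lower direction thus depends on the probe set taken for LEU2. With the 3′ to 5′ covariate no gene of the leucine, isoleucine and valine list was called higher or lower. Over all probe sets 81 and 66 were. Fewer genes of this list were also called with array 1 alone for the C2 compounds or without glucose arrays 1 and 3. LEU4 encodes the enzyme that makes isopropylmalate, which Oac1 carries. Its change was called for ethanol with glucose (0.94). Against maltose the LEU4 changes were 0.38 in ethanol and 0.12 in acetate, and neither was called. The smaller counts rest on single arrays. ILV3 lost its call without any of 10 arrays, all but maltose 2 and 3. In the same list 1 gene was called higher without ethanol 2 or 3, acetate 2 or 3, or glucose 1 or 3. In the glutamate and lysine list 1 gene was called lower without ethanol 2 or 3, acetate 2 or 3, maltose 1, or glucose 2 or 3.

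Of 12 regulators of these pathways 4 were called higher, with a median of 0.37. SIP4, an activator of gluconeogenic genes, rose by 2.28, ADR1 by 1.13, SNF1 by 0.55 and HAP4 by 0.52. The count was 1 with the code letter as a block and 2 with the 3′ to 5′ covariate, where 288 and 81 of all probe sets were called higher. Fewer were also called with array 1 alone for the C2 compounds, without glucose arrays 1 and 3 or on letter P arrays. CAT8, known as an activator of SFC1, averaged 54.2 ± 11.4 on ethanol and 48.4 ± 5.53 on acetate, against 26.9 ± 18.7 on maltose and 57.5 ± 11.8 on glucose (SD, n = 3 each), and its change of 0.49 was not called. LEU3, GCN4, LYS14, MIG1 and the retrograde genes RTG1, RTG2 and RTG3 were not called. RTG1 and LYS14 had mean signals close to the floor of 12.

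**Figure D4:**
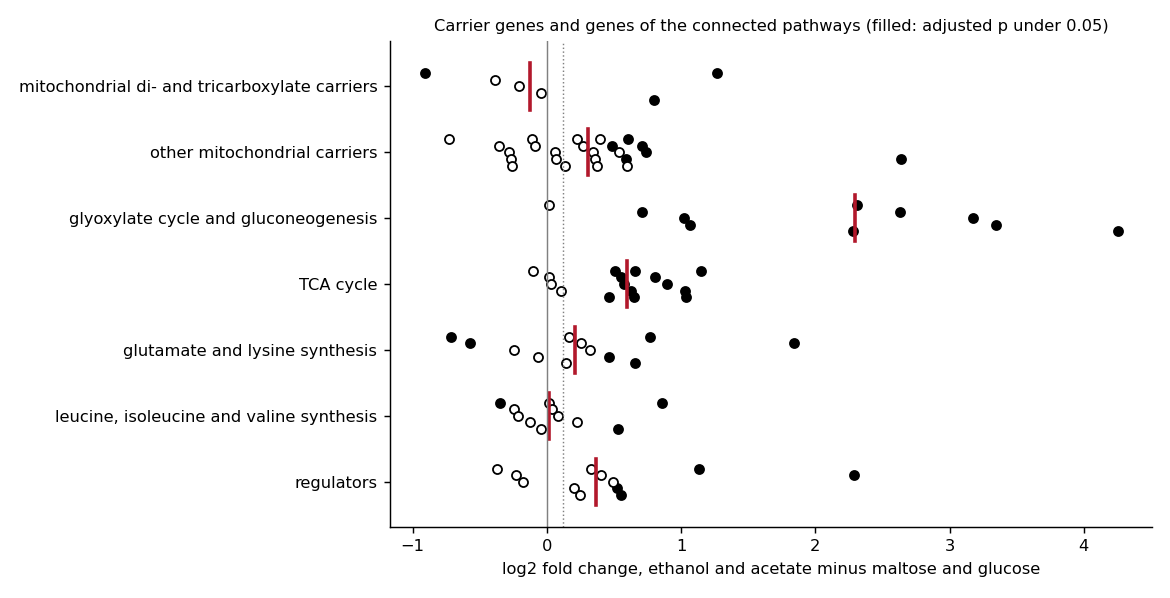
Log2 fold change between ethanol and acetate and the sugars for each tested gene of the carrier group and of 6 lists of connected genes, filled where the adjusted p was under 0.05. Red lines are list medians, the solid grey line marks 0 and the dotted line the median of all probe sets (0.12). The carriers run between −0.91 and 1.27, and the glyoxylate cycle and gluconeogenesis list has the highest median (2.30).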

How the data were processed

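The authors deposited linear probe set intensities (signals), made with MAS5 per the submitters' processing notes for the ethanol, acetate and maltose arrays. For the glucose arrays the software was not given in those notes. The 2% trimmed means of the 12 arrays lay between 150.1 and 150.2. The number of arrays limits the precision.

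Controls (60 of 9335 probe sets) were set aside. After rescaling to equal trimmed means, signals below 12 were set to 12 and log2 was taken. The 7176 probe sets above 12 on at least 3 arrays were fitted with 1 mean per source in limma 3.58.1 (R 4.3.3, intensity trend), with Benjamini-Hochberg adjustment over all of them in each contrast. Nothing says how separate the 3 cultures of a source were, and p-values measure the spread between them. The code was tested on simulated data. Blocking by replicate number was an alternative only.

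The members, lists and tests were chosen with earlier results of these data known. Named genes were the members, the 3 called genes of each list with the largest change, the genes a count refers to, and the 3 probe sets most correlated with each member among those with a mean signal of at least 100. ICL1, FUM1 and YHM2 levels, CAT8, GCN4, LEU3, LYS14, MIG1 and the RTG genes were added for their roles. Alternatives covered scaling, floor, filter, variance model, array weights, array quality, code letter, replicate number and each array left out. Genes were named from the platform annotation. No sequences or coordinates are given, and promoter motifs were not searched.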

Additional observations from a re-analysis of the deposited data

How the results depend on the processing

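Each member's change between C2 compounds and sugars was computed under 26 alternatives, 12 of which left out 1 array. SFC1 was called in all 26 (1.18 to 1.59) and OAC1 in none. DIC1 lost its call with the 3′ to 5′ covariate (−0.92) and with array 1 alone for ethanol and acetate (−0.86). ODC1 lost it with these settings (1.10 and 0.87), without glucose arrays 1 and 3 (0.65), under a block for the code letter (0.61), and with a floor of 50 or no filter, where the value stayed 0.80 and the adjusted p became 0.0516 and 0.0527. CTP1 became called with array weights (−0.36), and ranged between −0.56 and −0.30 when 1 array was left out. ODC2, never called, turned positive with quantile normalization (0.0095), the covariate (0.087) and array 1 alone (0.035). With the replicate number as a block the changes of SFC1, DIC1 and ODC1 were 1.27, −0.91 and 0.80 with the same calls. The replicate block ended the ODC1 F test (0.0514). Same-numbered arrays of different sources deviated together (correlation over 0.1) in 6 of 18 pairs, 2 of the 3 between ethanol and acetate among them, and the numbers were not taken to pair the cultures. The actin ratio of ethanol and acetate was low on both arrays 1 and high on arrays 2 and 3. No called pair of sources changed sign. Among uncalled pairs, ethanol minus acetate turned with array 1 alone (SFC1 −0.065, DIC1 −0.42) or with 1 array left out (SFC1 −0.11 to 0.13, DIC1 −0.058 to 0.21, ODC1 −0.15 to 0.021). Maltose minus glucose turned for DIC1 (0.24) and ODC1 (0.17) with the code letter as a block or letter P alone, and for DIC1 with 1 array left out (−0.25 to 0.025). LEU2 was at 0.22 on its brightest probe set and at −1.27 and −0.60, both called lower, on the others. Called probe sets between C2 compounds and sugars numbered 1225, 101 with array 1 alone for ethanol and acetate, 770.0 without ethanol 3, 752 without acetate 2, 715 without acetate 3 and 2826 with array weights. For the pairs, the count without 1 array went as far as 75 for ethanol with glucose (without ethanol 2; 183 in all), 125 and 678 for acetate with glucose (without acetate 3 and 1; 395), 159 and 1030.0 for ethanol with maltose (without ethanol 2 and maltose 3; 444), 262 and 1355 for acetate with maltose (without acetate 3 and maltose 3; 801), and 299 and 1072 for the F test (without acetate 2 and maltose 3; 588). Quantile normalization called 767 higher and 645 lower, against 817 and 408. The causes of these changes were not tested.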

Other observations

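The genes next to the 6 carrier genes on the chromosomes were mostly not called. Of 12 neighbours 10 could be tested, and their log2 changes between C2 compounds and sugars ran from −0.80 to 0.63. By limma 1 was called, YJR096W beside SFC1, at −0.80 (adjusted p 0.00526), opposite in sign to SFC1 at 1.27. RDS2, which encodes a zinc-finger regulator of gluconeogenic genes and lies beside ODC1, was at 0.63 without a call (adjusted p 0.216), and KAP95 and ORM2 beside DIC1 were at 0.35 and −0.13. YJR096W was chosen for mention after its value was seen.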
